A study of Pyronema omphalodes CBS 100304 with 6 samples.

Results

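The genes described here encode the machinery that brings proteins into mitochondria and the carriers that move metabolites across the inner mitochondrial membrane of the filamentous fungus *Pyronema confluens*. They were chosen by words in the predicted product (mitochondrial import, mitochondrial outer or inner membrane, mitochondrial carrier, carrier protein, processing peptidase, distribution and morphology, prohibitin, or ADP,ATP), with products naming ribosomal proteins, oxidases, acyl carriers or carnitine left out. Of the 13369 predicted genes, 67 held such words, 1 of these was left out as an acyl carrier, and 66 remained. RNA of vegetative mycelium of strain CBS 100304, labelled *Pyronema omphalodes* in the sample records, was sequenced in 6 libraries, of which 3 represent the subjective evening (24 hr in constant darkness, DD24) and 3 the subjective morning (36 hr in constant darkness, DD36). All cultures were shaken at 100 rpm and 25°, had at least 24 hr of constant light before darkness, reached the same total growth time through staggered shifts, and were harvested under red light. Replicates a, b and c of each time point are described as independent biological replicates. No mutant, light-treated or other control samples belong to the comparison, and 2 time points cannot show a rhythm.

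Most mitochondrial proteins are encoded in the nucleus, made in the cytosol and imported. In yeast and *Neurospora crassa* they pass the outer membrane through the TOM complex, and are then sorted. Proteins with a presequence cross the inner membrane through the TIM23 complex and its motor, and their presequence is cut off by the processing peptidase MPP. Metabolite carriers, which lack a cleavable presequence as a rule, are guided through the intermembrane space by small TIM chaperones and inserted by the TIM22 complex. The finished carriers exchange ADP, ATP, phosphate, organic acids and amino acids between matrix and cytosol, and porin lets small molecules pass the outer membrane.

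The deposited counts summed to between 806459 and 1132608 per library, and every value given here rests on them. The study lists many more mapped reads per library than these counts. Expression is given in CPM, counts scaled to the depth of each library with TMM factors. A count of 0 allows up to 3 counts, which equals 2.55 to 4.73 CPM depending on the library and covers counting error only. DD24 replicate a stood apart, because *PCON_08583* took 52.2% of its counts and between 30.7 and 39.3% of those of the other libraries. Its TMM factor was 0.728, and the factors of the others were 1.02 to 1.13. No marker of vegetative mycelium was available to check the label. Genes with words for sexual structures in their product, 47 in all, held between 0.220 and 0.320% of the counts in each library, and their part in any result was not tested.

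A larger share of the import and carrier genes, which were chosen by a named product, was detected than of all gene models, which include genes of unknown function. A filter on low counts was passed by 52 of the 66 (78.8%), compared with 5466 of 13369 predicted genes (40.9%). No read was counted in any library for 5 of the 66 (7.58%), as opposed to 2907 of all genes (21.7%). The 9 that were counted but not tested had between 1 and 48 counts over all libraries. The 66 genes lay on 56 scaffolds, with 36 on the minus strand.

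Among the 52 genes tested, levels per kilobase of mRNA model spanned 453-fold, from an *mdm34* gene to the ADP,ATP carrier, as the plot of levels by role shows. *PCON_09239* encodes the ADP,ATP carrier, which exports the ATP made in the matrix in exchange for cytosolic ADP (genome v01_2, scaffold 428, 15726 to 17411, plus strand, 4 exons). Its level was 2350.4 CPM per kilobase (2255 to 2526 over the 6 libraries), which ranked 12 among the 5466 genes tested. This gene alone held 40.9% ± 0.589 of the counts of all 66 genes in DD24 (SD, n = 3) and 41.3% ± 0.214 in DD36 (SD, n = 3). Porin, the channel of the outer membrane encoded by *PCON_09900* (scaffold 483, 111000 to 112528, minus strand), followed at 695 CPM per kilobase (635 to 823) and rank 52. The ranges of these genes did not overlap each other or that of the next gene.

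Below porin, the next 5 genes each had a range that overlapped that of the gene below it in the order. The β subunit of MPP, *PCON_04105*, was at 231 CPM per kilobase (197 to 317). The mitochondrial phosphate carrier *PCON_01302*, which brings phosphate into the matrix for ATP synthesis, was at 217 CPM per kilobase (166 to 256), so that both ranges overlapped. The small chaperones *tim10* (*PCON_12771*) and *tim9* (*PCON_02067*) and a subunit of the inner membrane organizing system (*PCON_04856*) came next at 136, 124 and 122 CPM per kilobase. These 7 genes were the ones above 100 CPM per kilobase. The median over the 52 genes was 35.8 CPM per kilobase, and that over all 5466 genes tested was 22.9.

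**Figure D1:**
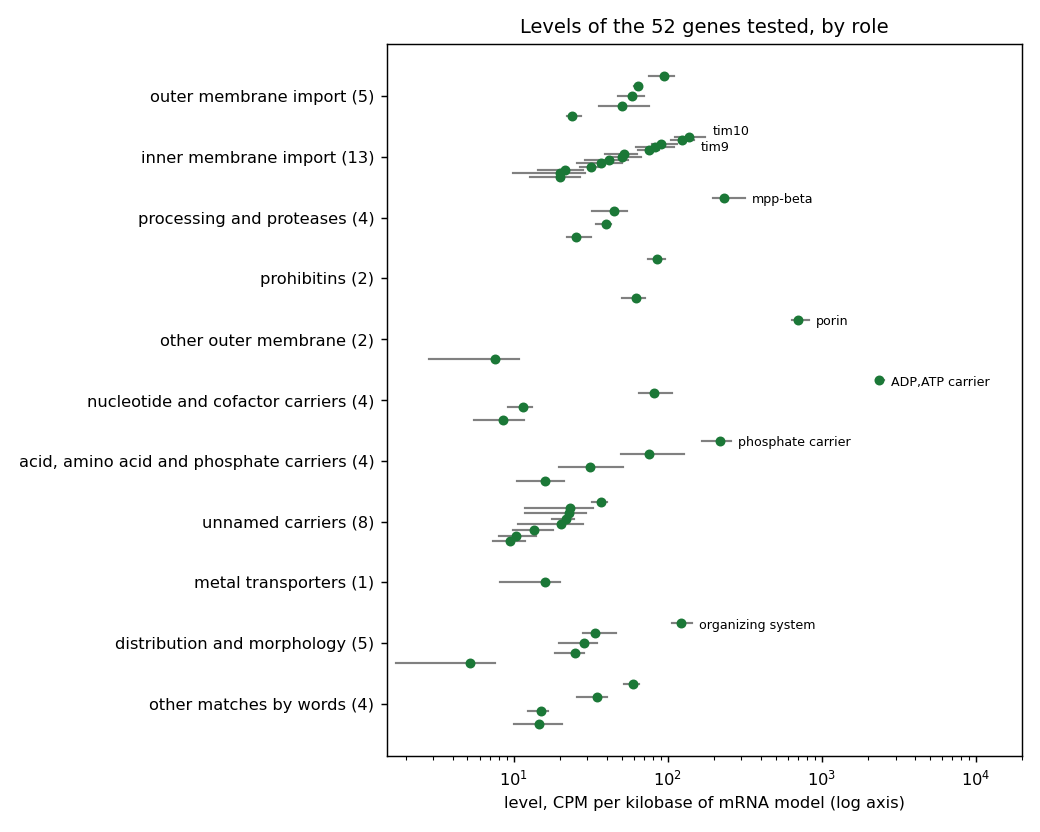
Levels of the 52 genes tested in CPM per kilobase of mRNA model (log axis), arranged by role with the number of genes in parentheses. Points are means over the 6 libraries, lines run from the lowest to the highest library, and names are given above 110 CPM per kilobase. The ADP,ATP carrier at 2350.4 and porin at 695 stand to the right of all others.

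No gene of the group differed between DD36 and DD24 at an adjusted p under 0.05. By edgeR's quasi-likelihood test with Benjamini-Hochberg adjustment over all genes tested, the count was 0 of 52, where the share over all 5466 genes was 0%. DESeq2 and limma-voom also called 0 of the 52, but DESeq2 gave no adjusted p for some of them, such as *PCON_03598* and *PCON_14135*. With the replicate letter (a, b or c), under which libraries of DD24 and DD36 resembled each other, as a block, edgeR still called 0 of the 52 in either direction, while over all genes the shares were 0.0915% (5 genes) higher and 1.21% (66 genes) lower in DD36. At an unadjusted p under 0.05, 1 gene was higher in DD36, a carrier similar to Aralar2, and 1 was lower, the phosphate carrier 2, compared with 2.38% higher and 4.61% lower over all genes. The smallest adjusted p of the group was 0.607 from edgeR. In RNA of whole mycelium, fewer cells of a type and less RNA per cell cannot be told apart.

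The fitted log2 fold changes of the 52 genes ran from -0.57 to 0.63 and were more often above than below 0. They were above 0 for 37 genes (71.2%), compared with 49.7% of all genes tested, and below 0 for 15 (28.8%), compared with 50.3%. The median was 0.12, while that of all genes was -0.00. In log2(CPM + 1) the medians of the 52 genes were 0.17, 0.06 and 0.07 for DD36 minus DD24 in letters a, b and c, with 35, 32 and 32 genes higher in DD36. The size of this median depended on DD24 replicate a, since it was 0.05 without that library. Under scaling by total counts the median of all genes moved to 0.23 and that of the 52 genes to 0.35, a difference of 0.12, equal to the difference under TMM. The share above 0 was then 90.4% of the 52 genes and 78.8% of all genes. It was lowest with the block and without letter a, at 57.4% of 54 genes tested and 48.1% of all genes. Without DD24 replicate a it was 63.0%, compared with 48.9% of all genes. Genes with low counts were left out of these medians, and the counts describe these libraries without a test of the group.

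**Figure D2:**
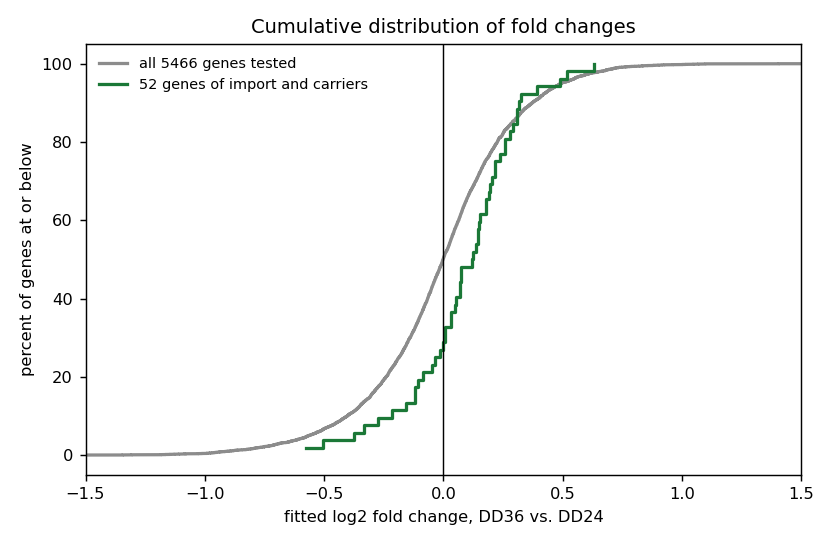
Percent of genes (vertical axis) with a fitted log2 fold change, DD36 vs. DD24, at or below the value on the horizontal axis, for all 5466 genes tested (grey) and for the 52 genes of import and carriers (green). The green line crosses 0 at 28.8% and the grey one at 50.3%.

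Changes of more than 1.5-fold were rare in the group. Only 1 of the 52 genes (1.92%), the Aralar2-like carrier, had a fitted change beyond 1.5-fold in either direction, whereas 412 of all genes tested (7.54%) did. The 52 genes also had a higher median level (35.8 CPM per kilobase, compared with 22.9), and genes of like level were not compared. The 95% intervals had a median width of 0.49 to either side on the log2 scale. They lay within 2-fold in both directions for 43 of the 52 genes and within 1.5-fold for 19. Differences within these intervals were not detectable at this depth and number of replicates.

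DD24 and DD36 values did not overlap for 5 of the 52 genes, and all 5 were higher in DD36 (9.62%, compared with 6.02% of all genes). They encode the Aralar2-like carrier, a TIM23 subunit, the outer membrane pore TOM40, the receptor TOM70 and the carrier YMC1. Without overlap and lower in DD36 were 0 of the 52 genes, compared with 5.87% of all genes. In each of the 3 letter pairs 12 genes (23.1%) were higher in DD36, compared with 15.9% of all genes, and 3 (5.77%) were lower, compared with 16.1%. All 4 of these counts are of genes whose differences did not pass the adjusted test.

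**Figure D3:**
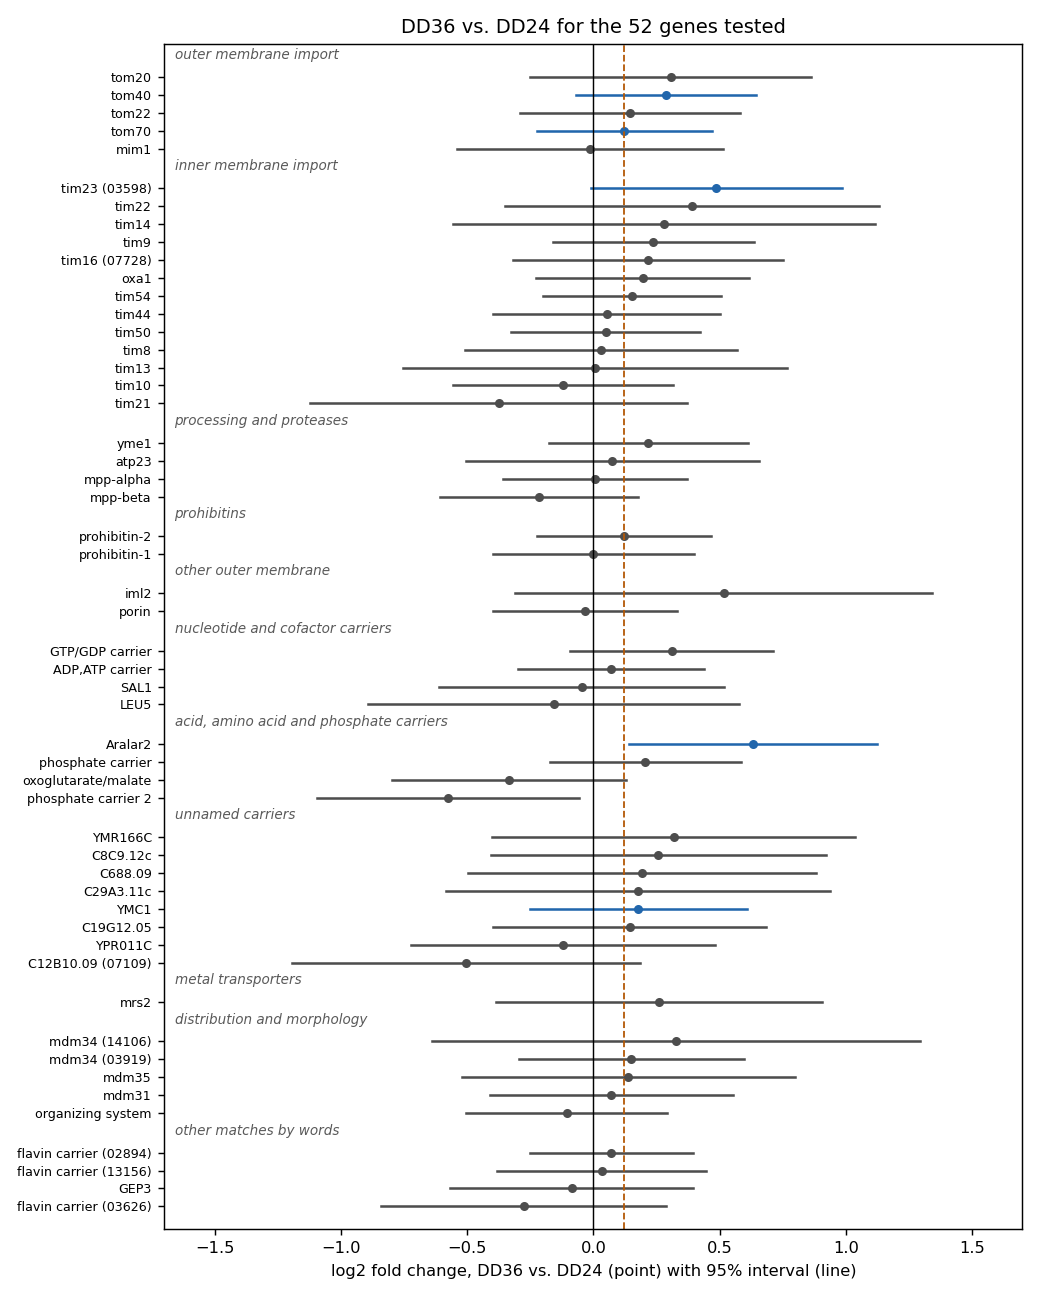
Fitted log2 fold change, DD36 vs. DD24 (points), with 95% intervals (lines) for the 52 genes tested, by role. Blue marks the 5 genes whose DD24 and DD36 values did not overlap, the black line is 0 and the dashed line the median of the 52 genes, 0.12. Aralar2 and phosphate carrier 2 are the genes whose unadjusted interval leaves out 0.

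The outer membrane route was represented by 5 genes, all of which were tested. The 4 TOM subunits had log2 fold changes between 0.12 and 0.31, with a median of 0.22, above 0 under each of the 4 scalings tried, though *tom22* was at -0.039 with the block and without letter a. *PCON_10939* encodes TOM40, the pore through which nearly all imported proteins pass (scaffold 566, 75218 to 77004, plus strand, 3 exons). Its values were 92.9, 84.8 and 76.4 CPM for replicates a to c of DD24 and 101, 112 and 96.4 CPM for those of DD36. All DD36 values lay above all DD24 values, by 3.46 CPM at the closest. This gave a change of 0.29 on the log2 scale (standard error, SE, 0.17, 95% interval -0.07 to 0.65, edgeR adjusted p = 0.767).

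The receptor *tom70* (*PCON_06626*), which binds carrier precursors, also showed no overlap but a narrow gap. Its values were 80.3, 83.9 and 84.8 CPM in DD24 and 98.4, 87.6 and 86.3 CPM in DD36, for a log2 fold change of 0.12. The model overlaps that of *PCON_06627* on the opposite strand by 917 bases, for which no read was counted in any library. *PCON_10797* encodes the presequence receptor TOM20, whose value of 63.7 CPM in DD36 replicate a was the highest of its 6 values and whose other 5 values lay between 30.6 and 48.5 CPM. The central receptor *tom22* (*PCON_03319*) had the highest level per kilobase of the route, 93.6 CPM per kilobase, and a log2 fold change of 0.14 (SE 0.20, edgeR adjusted p = 0.945). The fifth gene, *mim1* (*PCON_13531*), whose yeast counterpart helps to insert proteins into the outer membrane, had nearly the same values in every library, 24.4 ± 0.872 CPM in DD24 and 24.3 ± 1.28 CPM in DD36 (SD, n = 3).

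Of 16 genes for import into or across the inner membrane, 13 were tested, 11 with a log2 fold change above 0 and 2 below, and a median of 0.15. The membrane and motor subunits of the TIM complexes accounted for 8 of the tested genes, of which 7 were above 0 under each of the 4 scalings. Other alternatives turned 3 of these 7, with lowest values of -0.16 for *tim14* (*PCON_01977*), -0.33 for *tim44* (*PCON_10497*) and -0.18 for *tim50* (*PCON_13980*). *PCON_03598* encodes TIM23, the channel for presequence proteins (scaffold 1483, 204116 to 205175, minus strand, 1 exon). It was measured at 33.1, 27.1 and 37.6 CPM in DD24 and at 39.4, 42.5 and 53.3 CPM in DD36. The lowest DD36 value lay just above the highest DD24 value. On the log2 scale DD36 was higher by 0.49 (SE 0.23, 95% interval -0.01 to 0.98, edgeR adjusted p = 0.723), and it ranged from 0.35 to 0.61 when each library was left out.

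*PCON_14135*, which encodes TIM21, a subunit that in yeast links the TIM23 complex to the TOM complex and the respiratory chain, was the only tested membrane or motor subunit below 0. Its values were 26.8, 22.7 and 17.0 CPM in DD24 and 26.6, 12.8 and 12.9 CPM in DD36, lower in DD36 for each letter but by only 0.14 CPM for letter a. Its log2 fold change was -0.38 (SE 0.35, edgeR adjusted p = 0.913). The remaining subunits of this class, the receptor *tim50*, the motor genes *tim44*, *tim14* and *tim16* and the carrier translocase genes *tim22* and *tim54*, had log2 fold changes of 0.05 to 0.39 with intervals that included 0. The best measured of them was *tim50* (*PCON_13980*) at 158 ± 7.74 CPM in DD24 and 163 ± 35.0 CPM in DD36 (SD, n = 3).

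The small TIM proteins form hexameric chaperones that keep hydrophobic precursors soluble between the membranes, TIM9 with TIM10 and TIM8 with TIM13. All 4 genes were tested, with log2 fold changes from -0.12 to 0.24 and a median of 0.02. *PCON_12771* (*tim10*) had 80.2 ± 15.6 CPM in DD24 and 73.2 ± 14.8 CPM in DD36 (SD, n = 3) and a log2 fold change of -0.12, which turned to 0.05 without DD24 replicate c and to 0.10 with scaling by total counts. Its model overlaps that of *PCON_12770* by 11 bases. The insertase *oxa1* (*PCON_13532*), which inserts proteins into the inner membrane from the matrix, was higher in DD36 for each letter, with 41.0, 44.6 and 49.7 CPM in DD24 and 45.2, 54.4 and 55.1 CPM in DD36. It neighbours *mim1*, with 208 bases between the models on scaffold 861.

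Partner proteins with known joint complexes were compared within each library by the ratio of levels per kilobase, as the plot of ratios shows. The ratio of *tim9* to *tim10* was 0.603 to 1.30 over the 6 libraries. That of *tim8* to *tim13* was 0.937 to 1.89, based on 94 counts of *tim13* in all. In each pair the ratio lay on either side of 1. Prohibitin-2 was above prohibitin-1 in every library, by a ratio of 1.24 to 1.57. These proteins form the ring-shaped scaffold of the inner membrane from equal parts. The β subunit of MPP was 4.81 to 9.30 times as high per kilobase as the α subunit, and the highest ratio was that of DD24 replicate a. In *N. crassa* the β subunit is also a core protein of the cytochrome bc1 complex, while the α subunit is not. The ratio of *tim16* (*PCON_07728*) to its motor partner *tim14* (*PCON_01977*) was 2.50 to 7.25, based on 75 counts of *tim14* in all.

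**Figure D4:**
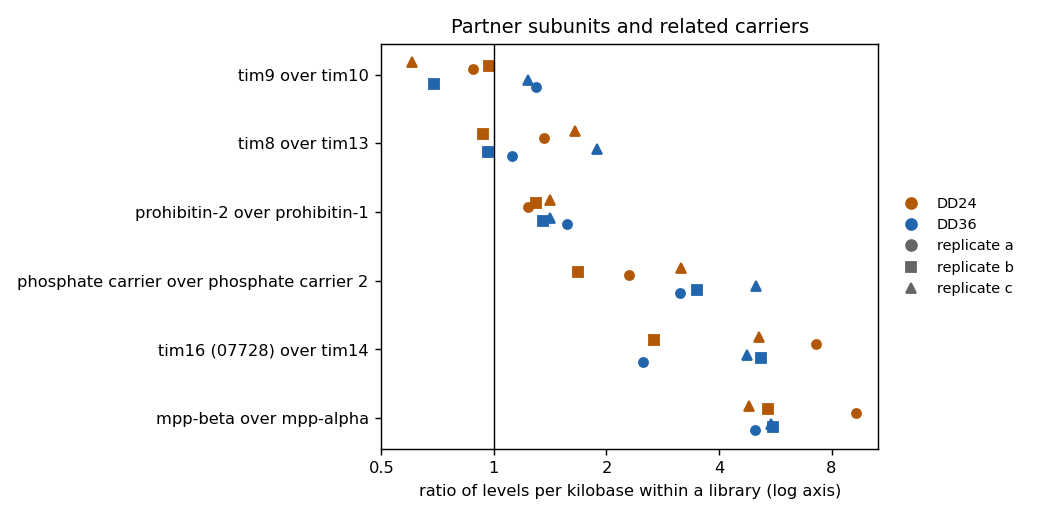
Ratio of levels per kilobase between genes for partner subunits or related carriers within each library (log axis), with DD24 in orange, DD36 in blue and the replicate letter as the symbol. The vertical line marks equal levels. *tim9* and *tim10* lie around 1, and the MPP subunits between 4.81 and 9.30.

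Of 6 genes for processing and proteolysis, 4 were tested, and their log2 fold changes were between -0.21 and 0.22. *PCON_04105*, the MPP β subunit (scaffold 154, 88346 to 90382, plus strand, 5 exons), had 559, 399 and 360.0 CPM in DD24 and 347, 413 and 372 CPM in DD36. The value of DD24 replicate a stood above the other 5. Fitted over all libraries, the log2 fold change was -0.21 (SE 0.18, edgeR adjusted p = 0.890), and it was -0.01 without DD24 replicate a and 0.06 with scaling by total counts. The α subunit (*PCON_12931*) was at 76.6 ± 9.08 CPM in DD24 and 77.5 ± 3.73 CPM in DD36 (SD, n = 3). *PCON_05704* encodes YME1, an ATP-dependent protease that acts on the intermembrane space side, and had 107 ± 23.4 CPM in DD24 and 126 ± 12.9 CPM in DD36 (SD, n = 3) with a log2 fold change of 0.22 (edgeR adjusted p = 0.890). The genes *imp1* and *imp2* for the inner membrane peptidase had 13 and 24 counts in all and were not tested.

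Prohibitin-2 (*PCON_08676*) had 113 ± 9.26 CPM in DD24 and 123 ± 11.9 CPM in DD36 (SD, n = 3), higher in DD36 for each letter, with a log2 fold change of 0.12 (SE 0.16, edgeR adjusted p = 0.939). Prohibitin-1 (*PCON_07302*) had a log2 fold change of -0.00 (interval -0.40 to 0.40). Porin (*PCON_09900*) was at 1032, 816 and 796 CPM in DD24 and at 796, 892 and 892 CPM in DD36. The groups overlapped, with DD24 replicate a at the top. Its log2 fold change of -0.03 (interval -0.40 to 0.33) became 0.09 without DD24 replicate a. The outer membrane gene *iml2* (*PCON_06167*) had 6.30, 13.1 and 21.8 CPM in DD24 and 13.9, 22.1 and 23.9 CPM in DD36, and a log2 fold change of 0.52 (SE 0.39, edgeR adjusted p = 0.848) that reached 0.95 without DD24 replicate c and 0.25 without DD24 replicate a.

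The carriers numbered 23, of which 16 were tested, 10 with a log2 fold change above 0 and 6 below (13 and 3 with scaling by total counts), and a median of 0.16. The outermost log2 fold changes of the 52 genes tested, 0.63 and -0.57, both belonged to the 7 carriers of acids, amino acids and phosphate. *PCON_08980* is similar to Aralar2, a calcium-binding carrier that in animals exchanges aspartate for glutamate as part of the malate-aspartate shuttle (scaffold 409, 117110 to 119566, minus strand, 2 exons). Its values were 47.3, 59.4 and 70.3 CPM in DD24 and 70.6, 81.6 and 123 CPM in DD36. Every letter was higher in DD36 and the groups did not overlap, although DD36 replicate a exceeded DD24 replicate c by only 0.34 CPM. Its log2 fold change was 0.63 (SE 0.23, 95% interval 0.14 to 1.12, edgeR adjusted p = 0.607).

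With the replicate letter as a block, the adjusted p of *PCON_08980* was 0.0990 from edgeR. It was 0.0399 when the block was combined with scaling by total counts, where the median of all genes had moved to 0.23, and 0.0417 with the block and without both libraries of letter a. With the block it was 0.597 without letter b and 0.330 without letter c, from edgeR. The log2 fold change was 0.36 without DD36 replicate c and lay between 0.36 and 0.85 over all alternatives. The direction was thus the same throughout. The block alone gave no call, and calls came only when total-count scaling or the removal of letter a was added to it.

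Phosphate carrier 2 (*PCON_08282*, scaffold 377, 185279 to 186903, minus strand, 3 exons) was at 99.2, 174 and 98.2 CPM in DD24 and at 84.5, 100.3 and 67.9 CPM in DD36. Each letter was lower in DD36, but DD36 replicate b lay above DD24 replicates a and c. The fit gave a log2 fold change of -0.57 (SE 0.24, 95% interval -1.09 to -0.06, edgeR adjusted p = 0.700). It was -0.23 without DD24 replicate b, the library with the highest value. With the block the adjusted p was 0.132 from edgeR, and with the block and without letter a it was 0.00639 at a log2 fold change of -0.70. With the block and without letter b it was 0.993 at -0.39, and without letter c 0.139 at -0.56.

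The other phosphate carrier, *PCON_01302* (scaffold 1083, 35180 to 37553, plus strand, 3 exons), was higher in DD36 for each letter. It was measured at 350, 450 and 478 CPM in DD24 and at 410, 540 and 524 CPM in DD36, with overlap between the groups and a log2 fold change of 0.21 (SE 0.18, 95% interval -0.17 to 0.58, edgeR adjusted p = 0.896). *PCON_01302* was above *PCON_08282* per kilobase in every library. The ratio was 2.29, 1.68 and 3.16 in DD24 and 3.15, 3.50 and 5.02 in DD36. It was higher in DD36 for each letter, with 1 DD36 value just under the highest DD24 value, and was not tested.

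**Figure D5:**
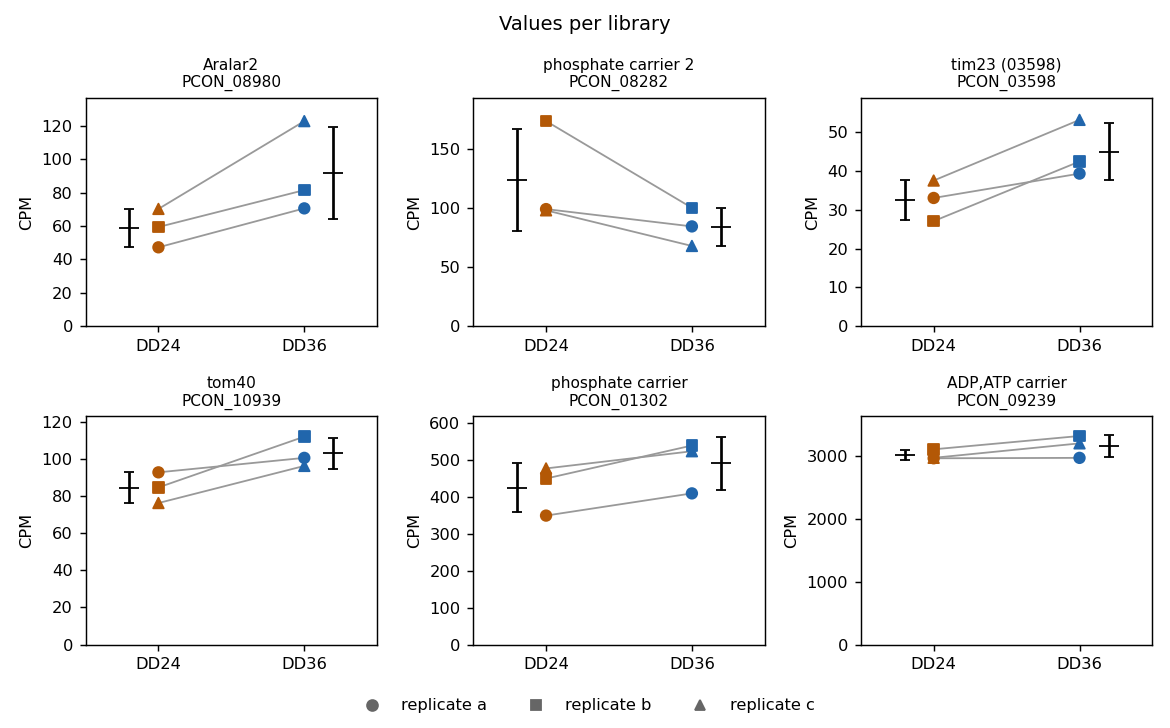
CPM per library of 6 genes, with DD24 in orange and DD36 in blue, symbols for the replicate letter and lines joining libraries with the same letter. Bars to the side are mean and SD (n = 3), and the vertical axes start at 0. Aralar2, TIM23 and TOM40 have no overlap between DD24 and DD36, and the ADP,ATP carrier lies between 2961 and 3316 CPM.

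The carrier similar to the 2-oxoglutarate/malate carrier, *PCON_02157* (scaffold 1208, 27411 to 32495, minus strand, 6 exons), was at 92.9, 80.4 and 60.6 CPM in DD24 and at 69.5, 69.7 and 45.9 CPM in DD36. Each letter was lower in DD36 and the groups overlapped. The log2 fold change was -0.33 (SE 0.22, 95% interval -0.80 to 0.13, edgeR adjusted p = 0.806). The aspartate/glutamate and oxoglutarate/malate exchangers work together in the malate-aspartate shuttle of animals, and the difference between these genes' changes was not tested.

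All 4 carriers of nucleotides and cofactors were tested, with 2 above and 2 below 0 and a median of 0.01. *PCON_09239*, the ADP,ATP carrier, had 2961, 3104 and 2969 CPM in DD24 and 2968, 3316 and 3199 CPM in DD36. The means were 3011 ± 80.3 and 3161 ± 177 CPM (SD, n = 3), with the values of letter a nearly equal. The log2 fold change was 0.07 (SE 0.17, 95% interval -0.30 to 0.44, edgeR adjusted p = 0.984). *PCON_06062* encodes a GTP/GDP carrier, which in yeast supplies the matrix with GTP, and had 83.5, 75.2 and 94.5 CPM in DD24 and 82.2, 107 and 122 CPM in DD36. Letters b and c were higher in DD36 and letter a was about equal, for a log2 fold change of 0.31 (SE 0.19, edgeR adjusted p = 0.784). SAL1 (*PCON_06536*) and LEU5 (*PCON_11984*), in yeast the ATP-Mg/phosphate carrier and a gene needed for coenzyme A in the matrix, had log2 fold changes of -0.05 and -0.16.

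Of 12 carriers named only by YMC1, a yeast or fission yeast open reading frame or calcium binding, 8 were tested, 6 above and 2 below 0. *PCON_03181* (YMC1), the most highly expressed per kilobase of these at 36.8 CPM per kilobase, had 39.4, 37.6 and 43.6 CPM in DD24 and 45.2, 46.8 and 44.1 CPM in DD36. The groups did not overlap, by a margin of 0.43 CPM, and the log2 fold change was 0.18 (SE 0.20, edgeR adjusted p = 0.931). *PCON_07109*, similar to the fission yeast carrier C12B10.09, had 17.3, 28.8 and 31.5 CPM in DD24 and 24.3, 20.4 and 11.9 CPM in DD36. It was higher in DD36 for letter a and lower for b and c, with a log2 fold change of -0.50 (SE 0.32, edgeR adjusted p = 0.799). The gene for the magnesium channel MRS2 (*PCON_07824*), which lets magnesium into the matrix, was at 12.6, 23.6 and 30.3 CPM in DD24 and 22.0, 30.6 and 28.5 CPM in DD36, with overlap and a log2 fold change of 0.26 (edgeR adjusted p = 0.935).

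Of 7 genes for distribution and morphology, 5 were tested, with 4 above 0 and a median of 0.14. *PCON_04856* encodes a subunit of the organizing system that shapes the cristae and had 60.9 ± 7.12 CPM in DD24 and 56.7 ± 5.27 CPM in DD36 (SD, n = 3), with a log2 fold change of -0.11 that became 0.11 with scaling by total counts. MDM34 is part of the tether between mitochondria and the endoplasmic reticulum in yeast, and 2 models carry its name. *PCON_03919* was 3.74 to 20.3 times as high per kilobase as *PCON_14106*, which had 57 counts in all and a log2 fold change of 0.33 (SE 0.45, edgeR adjusted p = 0.945). The other tether genes, *mdm12* and *mdm10*, had 45 and 38 counts and were not tested. The DD24 values of *mdm12*, 7.88, 10.5 and 10.9 CPM, all lay above its DD36 values of 6.95, 5.95 and 5.51 CPM. These rest on few counts, 5, 12 and 9 in DD24 and 6, 7 and 6 in DD36. Among the other genes not tested, *imp1* and *PCON_04010* were without overlap and higher in DD36, on very few counts. Those of *imp1* were 0, 2 and 2 in DD24 and 3, 3 and 3 in DD36, where a count of 0 allows up to 3. Those of *PCON_04010* were 0, 2 and 1 in DD24 and 4, 4 and 5 in DD36. The share without overlap among all genes not tested was not computed.

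The words also matched 4 genes that are not named as mitochondrial carriers or as parts of mitochondrial import. These were 3 flavin carrier proteins, whose yeast counterpart lies in the endoplasmic reticulum, and GEP3, named after a genetic interaction with prohibitins. Their log2 fold changes were between -0.28 and 0.07. The flavin carrier genes *PCON_02894* and *PCON_03626* had 190 ± 10.7 and 41.9 ± 7.73 CPM in DD36 and 180 ± 18.7 and 49.9 ± 16.9 CPM in DD24 (SD, n = 3). Without these 4 genes the median of the remaining 48 was 0.14, with 35 above and 13 below 0.

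Of the 5 genes without counts, 3 lay on the same scaffold. Of 4 carrier models in a stretch of scaffold 1120 from 2843 to 26121, 3 similar to Aralar1 (*PCON_01673*, *PCON_01674* and *PCON_01680*) had 0 counts in every library and *PCON_01682* had 1. On this scaffold 13 of 19 genes had counts, the highest of them 4439. *PCON_03811* and *PCON_10201*, similar to uncharacterized fission yeast carriers, had 0 counts as well. The highest count among the genes not tested, 48, belonged to *cox18* (*PCON_03786*), an insertase that in yeast acts on a subunit of cytochrome oxidase. Where the name of a subunit occurred on a pair of models, the counts were uneven. The second model named TIM23, *PCON_09197*, had 36 counts against 225 of *PCON_03598*. The second model named TIM16, *PCON_04010*, had 0, 2 and 1 counts in DD24 and 4, 4 and 5 in DD36, and *PCON_07728* had 220 in all. The *PCON_04010* model overlaps *PCON_04011* by 470 bases on the opposite strand. How reads matching more than 1 model were counted, and whether strand was used, is not given in the sources used here.

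Other genes of the pathway were gathered by product words outside the group, and the lists for chaperones, proteases and fusion and fission had medians below that of all genes. All 4 chaperone genes tested had log2 fold changes below 0, with a median of -0.10, among them HSP60 (*PCON_13458*), the matrix chaperonin, at -0.09 and the chaperone MCX1 (*PCON_06026*) at -0.31 (SE 0.23, edgeR adjusted p = 0.848). The sign of HSP60 rested on DD24 replicate a, with 1133, 585 and 765 CPM in DD24 and 850.0, 711 and 768 CPM in DD36, and its log2 fold change was 0.20 without that library. With scaling by total counts 3 of these 4 were above 0, and all 4 were below the median of all genes. Of 9 tested genes found by protease words 7 were below 0 and 6 below the median of all genes. The 9 had a median of -0.13. Among the 7, YTA12 (*PCON_03564*) was at -0.0008 and turned in 9 of 18 alternatives. *PCON_06975*, at -0.14, is similar to a peroxisomal Lon protease. The smallest p belonged to *PCON_06665*, similar to Next to BRCA1, which is not a mitochondrial protease. Its log2 fold change was -0.28 (edgeR adjusted p = 0.749), and that of OMA1 (*PCON_02782*), an inner membrane protease, was 0.49. Of 5 tested genes found by fusion and fission words 4 were below 0, with a median of -0.13. The 4 include *PCON_06504*, similar to dynamin-binding protein and matched by the word dynamin. They also include FZO1 (*PCON_10442*) at -0.07, which was at 0.13 without DD24 replicate a. The smallest p was that of *PCON_10583* for MGM101, a protein of mitochondrial DNA maintenance, at -0.24 (edgeR adjusted p = 0.844), while DNM1 (*PCON_06294*), the fission dynamin, was at 0.22. The list for insertion into the inner membrane and intermembrane space import matched 1 gene by letters alone, ERV14 (*PCON_08448*), a vesicle protein of the endoplasmic reticulum with a log2 fold change of 0.04. None of these genes passed an adjusted p of 0.05 in edgeR with or without the block. Under scaling by total counts, 6 of the 9 protease and 4 of the 5 fusion and fission genes were above 0, but 7 of the 9 and 4 of the 5 were below the median of all genes, which had moved to 0.23.

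As a share of the counts that remained after leaving out *PCON_08583* and 3 phage gene models, the 66 genes together held 1.21, 1.22 and 1.23% in DD24 and 1.31, 1.37 and 1.32% in DD36. The groups did not overlap in this sum, which is led by the ADP,ATP carrier and porin. As a share of all counts, the 66 genes held 0.528, 0.755 and 0.747% in DD24 and 0.727, 0.887 and 0.857% in DD36, and the groups overlapped. In CPM with TMM scaling, however, the sum was 7325, 7471 and 7301 in DD24 and 7210.1, 7977 and 7754 in DD36, where the groups overlapped and DD36 replicate a was the lowest of the 6 libraries. None of these sums was tested.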

How the data were processed

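Total RNA of *P. confluens* was sequenced from 6 libraries (DD24 and DD36, replicates a to c). Reads were trimmed and mapped to genome v01_2 by the authors, who deposited read counts per predicted gene without normalization. CASAVA 1.8.2 and DESeq are named in the submitters' processing notes. Aligner, counting tool and use of strand are not stated in these sources. The medium is abbreviated WPC in the labels and called minimal medium in the study. The deposited table also holds the authors' own comparisons (DESeq and LOX ratios, probabilities, p-values), which were not used. All count columns were matched to a library.

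The counts were tested with edgeR 4.0.16 in R 4.3.3. Of 13369 genes, 5466 passed filterByExpr with the 2 groups. Libraries were scaled by TMM, and DD36 was compared with DD24 by robust quasi-likelihood fits with the condition as the term and Benjamini-Hochberg adjustment over all genes tested (threshold 0.05). CPM are counts divided by the summed counts of the genes tested times the TMM factor, and levels were divided by the length of the mRNA model in kilobases. Pairwise differences used log2(CPM + 1). The common biological coefficient of variation was 0.173. Between libraries of 1 time point the chi-square over its degrees of freedom was 3.36 to 14.1, and none was counted as a copy. Deviations from the time point means correlated between libraries of the same letter (0.223, 0.273 and 0.316, all above the minimum of 0.1), and the letter was therefore used as a pair in a blocked fit. The pairing comes from the data and the shared letter, since the sources do not say what the letter stands for.

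The members, the pathway lists and the alternatives were chosen with earlier results of these data known. Genes are named when they had 1 of the 5 smallest p in a direction, the smallest p or highest level of their role, or 1 of the 5 highest levels. Other genes were named after their values were seen, to complete a complex or a pair. Alternatives were RLE and total-count scaling, TMM without *PCON_08583* and the 3 phage models, no filter beyond 1 count, at least 10 counts in each library, the block alone, with total-count scaling or without 1 pair, leaving out each library, DESeq2 1.42.0, limma-voom (limma 3.58.1), and an adjusted p under 0.1. Sequences and chromosomes were not used here, and positions are those of the deposited table.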

Additional observations from a re-analysis of the deposited data

How the results depend on the processing

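The count of 0 genes of import and carriers past the threshold was obtained in both directions with every setting except the block with total-count scaling (1 higher) and the block without pair a (1 higher, 1 lower). Leaving out each library gave 0 in both directions. DESeq2 gave no adjusted p for some genes of the group, which were counted as not past the threshold. Over all genes, the counts higher and lower in DD36 were 0 and 0, and became 2 and 51 without the filter, 5 and 66 with the replicate block, 53 and 24 with total-count scaling added to the block, 41 and 150 with the block without pair a, 27 and 120 without pair c, and 0 and 2 without pair b. DESeq2 called 19 lower, an adjusted p under 0.1 called 3 lower, and leaving out each library gave 0 to 20 lower and 0 higher, the 20 without DD24 replicate c. The median of the group was 0.35 with total-count scaling, with or without the block, 0.039 with the block without pair a, and 0.052 to 0.15 without each library, the lowest without DD24 replicate a.

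Signs of small log2 fold changes turned for *PCON_04105* (0.056 with total counts, 0.051 with the block and total counts, 0.041 with the block without pair a), *PCON_04856* (0.11 and 0.12 with total counts without and with the block), *PCON_12771* (0.10, 0.11 and, with the block without pair c, 0.13, with -0.30 to 0.055 without each library) and *PCON_09900* (0.22 with total counts, with or without the block, 0.14 with the block without pair a, -0.099 to 0.089 without each library). With the block without pair a they turned to -0.038 for *PCON_14106*, -0.044 for *PCON_02894* and -0.039 for *PCON_03319*. Over all alternatives 25 of the 52 genes tested kept their sign and 27 turned in at least 1, 17 with reported values above 0 and 10 below. For the 23 genes named by the rule, 392 of the values under alternatives kept direction without a call, 16 turned and 3 passed the threshold. The 3 are those of *PCON_08980* and *PCON_08282* given above. The 392 include DESeq2 values that had no adjusted p, such as that of *PCON_03598*. The replicate block alone changed no call among the 23 genes. The causes were not tested. The alternatives for a table of normalized values were not run, since the table holds counts. Depth limits the genes with few counts most, such as *PCON_14106*, whose interval was -0.64 to 1.29.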
